A study of Homo sapiens with 12 samples.

Results

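The mRNAs of 10 enzymes that build serine and pass its carbon through folate were followed in A375, a human melanoma cell line with mutated BRAF. The enzymes were chosen by gene name: PHGDH, PSAT1, PSPH, SHMT1, SHMT2, MTHFD1, MTHFD2, MTHFD1L, MTHFD2L and ALDH1L2. All 10 had a row among the 44659 rows of the deposited table of raw read counts, and all 10 passed the limit of a mean normalized count of at least 10 in both experiments. In the first experiment, cells received 500 nM vemurafenib, a BRAF inhibitor, with 500 nM cobimetinib, a MEK inhibitor, for 24 h (MAPKi), or the solvent DMSO for the same time, in both cases in medium with 2 mM glutamine. In the second, cells were washed and kept for 24 h in medium free of glutamine (Gln-depleted) or in the usual medium with 2 mM glutamine (CTRL). Each group had 3 libraries, 12 in all, and every group used this 1 line in the same base medium with serum. The labels name separate replicates but not separate cultures, so p-values measure the spread between these libraries, which may be technical. By the labels the MAPKi experiment was sequenced in 1 batch and the Gln experiment in another, and in the Gln experiment replicate 1 of both groups came from experimental batch 1 and replicates 2 and 3 from experimental batch 2. The labels describe RNA from the cytoplasmic part of a detergent lysate, while the methods for RNA-seq speak of total RNA. The cells of a library are bulk cells, so fewer cells with an mRNA and less of the mRNA per cell cannot be told apart.

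Between 31056296 and 40071368 reads were counted per library. The 7 melanocyte lineage markers checked, SOX10 and MITF among them, passed the count limit in both experiments. Of these markers, 6 were higher and S100B was lower under MAPKi, and MITF was lower without glutamine. Of all genes tested, 39.3% were called higher and 38.8% lower under MAPKi, and 9.76% lower without glutamine. The leukocyte marker CD3E and the epithelial marker KRT5 had no read in any library, and the endothelial markers PECAM1 and CDH5 summed to a normalized count of at most 1.116 in a library. The leukocyte list summed to 2.655 to 6.695 in MAPKi, 16.39 to 19.3 in DMSO, at most 8.884 without glutamine and 7.817 to 17.08 in CTRL, and PTPRC was called lower under MAPKi (-1.8, edgeR adjusted p = 0.00405). The epithelial list summed to 3.348 to 7.964, 2.967 to 4.29, 14.81 to 20.7 and 3.014 to 3.909 in the same order of groups. The fibroblast list summed to 436.3 to 518.6, 607.3 to 805.4, 93.77 to 151.6 and 451.7 to 782.6. Of its genes, LUM was lower in both experiments (-0.69 and -2.26) and COL1A1 higher under MAPKi (0.83). The part of these markers in the results was not tested. RN7SK, a nuclear non-coding RNA, took 3.95 to 4.40% of the reads in MAPKi libraries and 1.93 to 2.15% in DMSO libraries, and 1.99, 2.46 and 3.79% in Gln-depleted replicates 1 to 3 against 1.55, 1.78 and 2.25% in CTRL, and its part in the results was not tested. Replicates of the Gln experiment lay farther apart than those of the MAPKi experiment, with a chi-square per degree of freedom of 36.2 to 174 between replicates in the former and 4.47 to 14.4 in the latter, and no 2 libraries agreed within sampling noise.

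Serine is made from a glycolytic intermediate in 3 steps. PHGDH oxidises 3-phosphoglycerate, PSAT1 transfers an amino group from glutamate, and PSPH removes the phosphate. The hydroxymethyltransferases, SHMT1 in the cytosol and SHMT2 in mitochondria, split serine into glycine and a carbon unit held by tetrahydrofolate. In mitochondria MTHFD2 or MTHFD2L oxidises this unit, MTHFD1L releases it as formate, and ALDH1L2 can instead oxidise it to carbon dioxide with formation of NADPH, while the cytosolic MTHFD1 is a single protein with 3 activities that takes up formate for purine and thymidylate synthesis. Several of these genes are known targets of ATF4, the transcription factor that cells raise when amino acids are short.

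The DNA at the start sites is shown for 4 genes that were called in both experiments. RefSeq promoter windows (GRCh38.p14) were used for 7 of the 10 genes, all but PSPH, SHMT2 and ALDH1L2. Both strands of each window, from 250 bases before to 50 bases after the start, were searched for CCAAT (the letters of the CCAAT box), CACGTG (the E-box) and TGATGNAAN (the core of the C/EBP-ATF response element), 3 motifs that share no overlapping match here. CCAAT was in the windows of 6 of the 7 genes and in 34.6% of all 35116 human windows, CACGTG in those of 2 of the 7 and in 7.26%, and TGATGNAAN in that of 1 of the 7 and in 3.61%. A gene was counted where any of its windows matched, and the 7 genes had 11 windows. The percentages are per window, so the counts and shares are not in like units. The 250 bases before the start follow for 3 genes, from 5′ to 3′ on the plus strand, with the matches in capitals. They lie at chr1:119711684-119711933 for PHGDH, chr9:78296875-78297124 for PSAT1 and chr2:74198365-74198614 for MTHFD2, and the last line holds 30 bases of MTHFD1L at chr6:150866347-150866376.
PHGDH: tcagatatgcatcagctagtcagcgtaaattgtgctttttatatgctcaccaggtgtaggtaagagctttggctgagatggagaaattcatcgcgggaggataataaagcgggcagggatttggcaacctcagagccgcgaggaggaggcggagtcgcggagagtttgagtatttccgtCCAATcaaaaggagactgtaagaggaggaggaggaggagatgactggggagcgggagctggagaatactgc
PSAT1: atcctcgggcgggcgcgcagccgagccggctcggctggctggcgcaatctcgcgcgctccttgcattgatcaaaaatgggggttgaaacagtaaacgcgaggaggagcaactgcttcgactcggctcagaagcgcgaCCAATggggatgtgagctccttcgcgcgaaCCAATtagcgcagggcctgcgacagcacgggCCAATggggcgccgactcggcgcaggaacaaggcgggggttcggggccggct
MTHFD2: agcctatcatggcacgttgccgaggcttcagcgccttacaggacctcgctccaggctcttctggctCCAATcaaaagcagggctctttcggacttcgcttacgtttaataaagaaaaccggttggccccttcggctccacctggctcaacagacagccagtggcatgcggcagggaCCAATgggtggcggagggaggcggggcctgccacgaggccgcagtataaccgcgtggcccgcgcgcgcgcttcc
MTHFD1L: ccgccggctcTGATGCAATcgcgccgggcg
PSAT1 had 3 CCAAT matches, whose first bases lie 113, 83 and 52 bases before the start. MTHFD2 had 2, at 184 and 74 bases before the start, and PHGDH had 1, at 71. The TGATGCAAT of MTHFD1L begins 24 bases after the first of its annotated starts, and 90 and 129 bases before the next 2. Of its 4 windows, the 3 that overlap each other held all 3 motifs. MTHFD1 held CACGTG 15 bases before its start and 2 CCAAT matches, SHMT1 had 2 CCAAT matches, and the windows of MTHFD2L held none of the motifs. A match describes letters in a window and does not show that a protein binds there.

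In MAPKi-treated cells, 7 of the 10 enzyme mRNAs were lower than in DMSO-treated cells, 1 was slightly higher and 2 were not called. The mitochondrial MTHFD1L and MTHFD2 fell most of the 10, 6.94-fold and 6.32-fold, and the serine synthesis enzymes PHGDH, PSPH and PSAT1 fell 2.24-fold, 1.87-fold and 1.37-fold. An mRNA was called where edgeR's quasi-likelihood test, adjusted by Benjamini-Hochberg over all 12599 protein-coding genes tested, gave a p no higher than 0.05. Of these, 38.8% were called lower and 39.3% higher, so a call of a single mRNA as lower was common in this experiment. Against a change of 1.5-fold, PHGDH, PSPH, SHMT2, MTHFD2 and MTHFD1L (5 of 10) were still lower, where 18.4% of the genes tested were called lower and 17.2% higher. The median log2 fold change was -0.66 over the 10 enzymes and 0.009 over all genes tested.

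In cells kept without glutamine, 6 of the 10 enzyme mRNAs were higher than in CTRL cells, in a fit that treated the libraries as unpaired. ALDH1L2 rose most, 17.5-fold, MTHFD2 rose 4.25-fold, PHGDH, PSAT1 and PSPH rose 3.90-fold, 3.83-fold and 3.12-fold, and MTHFD1L rose 2.24-fold. Over the 12516 genes tested by the same test, 8.67% were called higher and 9.76% lower. None of the 10 was called lower by this unpaired edgeR fit, where MTHFD1 had an unadjusted p under 0.05. DESeq2 called MTHFD1 lower, and the share of all genes that it called lower is not given here. Against the limit of 1.5-fold, PSAT1, PSPH, MTHFD2 and ALDH1L2 (4 of 10) were still higher, where 3.14% of the genes tested were called higher and 2.41% lower. The median log2 fold change was 1.40 over the 10 enzymes and -0.034 over all genes tested. Same-numbered libraries of this experiment deviated together, which the fit above ignores. With the replicate number as a block, edgeR called 3 further members: SHMT2 higher, and SHMT1 and MTHFD1 lower. The block raised the genes called among all tested to 3159 lower and 2955 higher, from 1222 and 1085. Within experimental batch 2 alone, 2 members were called lower and 2126 of the genes tested were lower and 2231 higher.

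**Figure D1:**
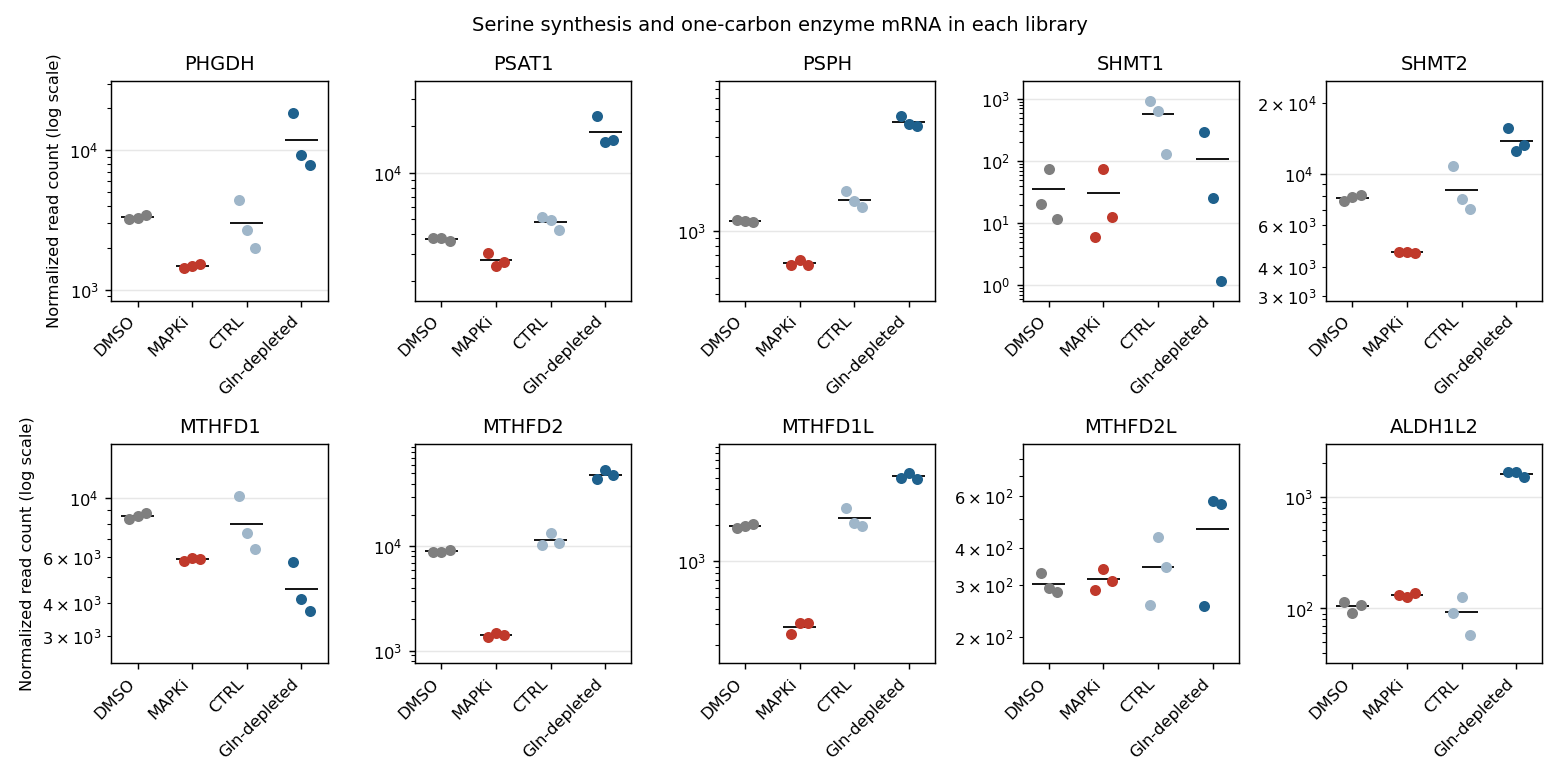
Normalized read count (log scale) of each enzyme in the 12 libraries, with 1 panel per gene, 1 point per library, replicates 1 to 3 from left to right in each group and a line at the group mean. PHGDH, PSAT1, PSPH, SHMT2, MTHFD2 and MTHFD1L sit lower in all MAPKi libraries than in all DMSO libraries and higher in all Gln-depleted libraries than in all CTRL libraries, and SHMT1 is scattered within each group. Counts were scaled within each experiment. How many of all genes tested had groups that stood apart in this way was not counted.

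PHGDH (chr1:119648411-119744218, plus strand of GRCh38), the first enzyme of serine synthesis, had normalized counts of 1430, 1494 and 1528 in MAPKi replicates 1 to 3 and of 3234, 3268 and 3472 in DMSO replicates 1 to 3. All MAPKi libraries lay below all DMSO libraries, with a log2 fold change of -1.16 ± 0.05 (SE, n = 3 per group, edgeR adjusted p = 2.85e-08). Here and below, the share of all genes tested whose groups did not overlap was not counted. Without glutamine PHGDH had 18445, 9270 and 7804 normalized counts in replicates 1 to 3, against 4447, 2678 and 1990 in CTRL. In both groups replicate 1, from experimental batch 1, was the highest. The log2 fold change was 1.96 ± 0.41 (SE, n = 3 per group, edgeR adjusted p = 0.0175). This call was lost without CTRL replicate 2 (1.88, adjusted p = 0.0639) or without CTRL replicate 3 (1.73, adjusted p = 0.0602), and PHGDH did not pass the limit of 1.5-fold (adjusted p = 0.0506). It was kept with the replicate block (1.94 ± 0.12, edgeR adjusted p = 6.08e-05) and within experimental batch 2 (1.91, adjusted p = 0.00213).

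PSAT1 (chr9:78297125-78330093, plus strand), the aminotransferase of the second step, moved least of the 3 serine synthesis mRNAs under MAPKi. Its normalized counts were 3031, 2500 and 2653 in MAPKi replicates 1 to 3 and 3787, 3801 and 3637 in DMSO, so the groups did not overlap. The log2 fold change was -0.46 ± 0.07 (SE, n = 3 per group, edgeR adjusted p = 0.000201), within the limit of 1.5-fold. Without glutamine PSAT1 had 23215, 15642 and 16175 normalized counts, against 5187, 4911 and 4273 in CTRL. Each Gln-depleted library lay above each CTRL library, with a log2 fold change of 1.94 ± 0.22 (SE, n = 3 per group, edgeR adjusted p = 0.00234).

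PSPH (chr7:56011051-56051604, minus strand), the phosphatase of the last step, had 604.2, 655 and 609.7 normalized counts in MAPKi libraries and 1179, 1165 and 1148 in DMSO libraries. The groups stood apart, at a log2 fold change of -0.90 ± 0.05 (SE, n = 3 per group, edgeR adjusted p = 3.13e-07). In the Gln experiment PSPH had 5395, 4782 and 4696 normalized counts without glutamine and 1793, 1547 and 1421 in CTRL. Here the groups stood apart in the other direction, at 1.64 ± 0.18 on the log2 scale (SE, n = 3 per group, edgeR adjusted p = 0.00225).

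The reads of PHGDH per read of PSAT1, taken within a library so that no normalization enters, were 0.472, 0.598 and 0.576 in MAPKi libraries and 0.854, 0.860 and 0.955 in DMSO libraries. PHGDH was thus lower relative to PSAT1 in each MAPKi library than in any DMSO library. In the Gln experiment the ratio was 0.795, 0.593 and 0.482 without glutamine and 0.857, 0.545 and 0.466 in CTRL, where the groups overlapped and libraries of the same replicate number had similar ratios.

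SHMT2 (chr12:57229573-57234935, plus strand), the mitochondrial hydroxymethyltransferase, had 4640, 4599 and 4567 normalized counts in MAPKi libraries and 7617, 7958 and 8099 in DMSO libraries. Replicates lay close together and the groups did not overlap, with a log2 fold change of -0.78 ± 0.04 (SE, n = 3 per group, edgeR adjusted p = 1.95e-07). Without glutamine it had 15575, 12454 and 13178 normalized counts, against 10753, 7785 and 7057 in CTRL. All Gln-depleted libraries were above all CTRL libraries, but CTRL replicate 1 was closer to them than the other CTRL libraries, and the log2 fold change of 0.69 ± 0.21 was not called (SE, n = 3 per group, edgeR adjusted p = 0.0593). It was called with the replicate block (0.70 ± 0.12, adjusted p = 0.00244), within experimental batch 2 (0.82, adjusted p = 0.00755) and without CTRL replicate 1 (0.95, adjusted p = 0.0225).

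SHMT1 (chr17:18327860-18363563, minus strand), the cytosolic hydroxymethyltransferase, varied widely between replicates. It had 6, 66 and 14 raw reads in MAPKi replicates 1 to 3 and 19, 75 and 12 in DMSO, and 301, 26 and 1 without glutamine against 946, 637 and 143 in CTRL. The table holds a second row for this gene, and the share of the reads of both rows that fell on the first ranged from 0.6% in Gln-depleted replicate 3 to 98.7% in Gln-depleted replicate 1. How reads were split between the rows is not given in the sources used here, so the level of SHMT1 is uncertain. The log2 fold change was -0.24 ± 0.90 under MAPKi (edgeR adjusted p = 0.818) and -2.38 ± 1.29 without glutamine (adjusted p = 0.228, SE, n = 3 per group). With both rows summed it was -1.20 ± 0.80 (adjusted p = 0.198) and -1.83 ± 0.89 (adjusted p = 0.18). The decrease without glutamine was called with the replicate block (-3.38 ± 0.66, adjusted p = 0.00465), within experimental batch 2 (-4.72, adjusted p = 0.0191) and without Gln-depleted replicate 1 (-5.32, adjusted p = 0.0214), each on the first row alone. Under MAPKi the sign of SHMT1 turned when MAPKi replicate 1 (0.24), MAPKi replicate 3 (0.14) or DMSO replicate 2 (0.91) was left out.

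MTHFD1 (chr14:64388031-64463457, plus strand), the cytosolic enzyme with 3 activities, had 5771, 5919 and 5866 normalized counts in MAPKi libraries and 8357, 8544 and 8807 in DMSO libraries. The groups did not overlap, and the log2 fold change of -0.55 ± 0.04 (SE, n = 3 per group, edgeR adjusted p = 1.71e-06) lay within the limit of 1.5-fold. Without glutamine it had 5723, 4147 and 3731 normalized counts, against 10177, 7381 and 6428 in CTRL. Alone among the 10, MTHFD1 was at a lower normalized count in every Gln-depleted library than in every CTRL library. The log2 fold change of -0.82 ± 0.25 was not called (SE, n = 3 per group, edgeR adjusted p = 0.0556). It was called with the replicate block (-0.82 ± 0.11, adjusted p = 0.000868), within experimental batch 2 (-0.77, adjusted p = 0.00941) and without Gln-depleted replicate 1 (-1.02, adjusted p = 0.0306). ZBTB25, on the other strand, overlaps 14352 bases of the gene, and whether reads were counted by strand is not given in the sources used here.

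MTHFD2 (chr2:74186172-74217565, plus strand), the mitochondrial dehydrogenase and cyclohydrolase, had 1365, 1492 and 1420 normalized counts in MAPKi libraries and 8928, 8854 and 9218 in DMSO libraries. Every DMSO library held several times the MTHFD2 of every MAPKi library, at a log2 fold change of -2.66 ± 0.05 (SE, n = 3 per group, edgeR adjusted p = 8.77e-10). Without glutamine it had 44358, 53457 and 48558 normalized counts, against 10222, 13434 and 10819 in CTRL. These groups too stood apart, at 2.09 ± 0.19 on the log2 scale (SE, n = 3 per group, edgeR adjusted p = 0.00151). A pseudogene row, MTHFD2P1, had at most 5 reads in a library.

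MTHFD1L (chr6:150865679-151101887, plus strand), the mitochondrial formate-releasing enzyme, had 244.7, 302.4 and 302.6 normalized counts in MAPKi libraries and 1880, 1974 and 2046 in DMSO libraries. The log2 fold change was -2.79 ± 0.08 (SE, n = 3 per group, edgeR adjusted p = 6.15e-09), with no overlap of the groups. Without glutamine it had 4998, 5501 and 4884 normalized counts, against 2815, 2108 and 1954 in CTRL. All Gln-depleted libraries were above all CTRL libraries, at 1.16 ± 0.20 on the log2 scale (SE, n = 3 per group, edgeR adjusted p = 0.0091), a change that did not pass the limit of 1.5-fold (adjusted p = 0.0503).

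MTHFD2L (chr4:74114174-74303099, plus strand), the other mitochondrial dehydrogenase, was not called in either experiment. It had 289, 339.2 and 309.7 normalized counts in MAPKi libraries and 329.2, 292.7 and 284.4 in DMSO libraries, which overlapped, at a log2 fold change of 0.05 ± 0.10 (SE, n = 3 per group, edgeR adjusted p = 0.65). Without glutamine it had 254.7, 574.7 and 562.1, against 256, 435 and 345 in CTRL. Replicate 1 was the lowest of both groups and did not rise, and the log2 fold change was 0.42 ± 0.35 (SE, n = 3 per group, edgeR adjusted p = 0.425).

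ALDH1L2 (chr12:105019784-105107643, minus strand), which oxidises the formyl group of mitochondrial folate, was the scarcest of the mitochondrial enzymes in CTRL cells per length. It had 91.85, 127.6 and 57.36 normalized counts in CTRL libraries and 1656, 1682 and 1504 without glutamine. Its rise of 4.13 ± 0.32 on the log2 scale (SE, n = 3 per group, edgeR adjusted p = 0.00114) was the largest of the 10 in that experiment. Under MAPKi it had 130.9, 127.2 and 138.9 normalized counts, against 114.7, 90.99 and 108 in DMSO. The groups did not overlap, but the log2 fold change was 0.34 ± 0.13 (SE, n = 3 per group, edgeR adjusted p = 0.0423), and this call was lost with DESeq2 (adjusted p = 0.0793). It was also lost when MAPKi replicate 1 (adjusted p = 0.0766), 2 (0.0664) or 3 (0.143) or DMSO replicate 2 (0.133) or 3 (0.0682) was left out. NOPCHAP1, on the other strand, overlaps 54414 bases of ALDH1L2.

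**Figure D2:**
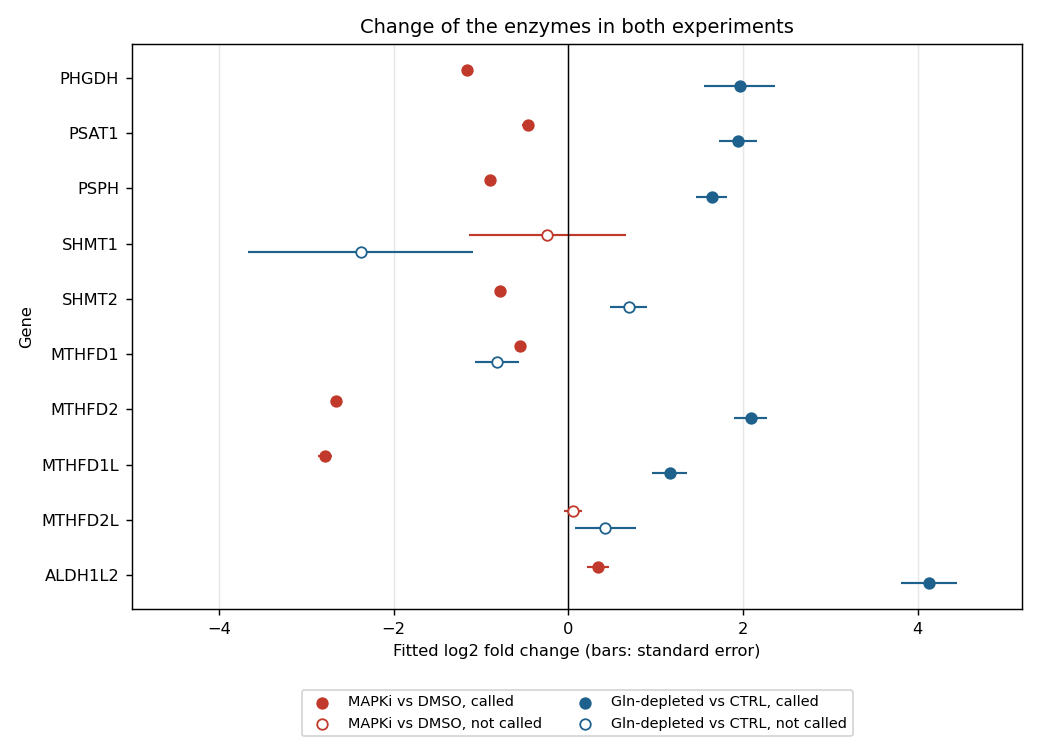
Fitted log2 fold change of each enzyme (horizontal axis), MAPKi against DMSO in red and Gln-depleted against CTRL in blue, with standard errors as bars and filled points where the adjusted p was at most 0.05. Both fits treated the libraries as unpaired. MTHFD2 lies at -2.66 and 2.09 and PHGDH at -1.16 and 1.96, whereas MTHFD1 lies at -0.55 and -0.82, on the same side in both experiments.

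The difference between the experiments was tested as the MAPKi effect minus the Gln depletion effect over the 12 libraries. This fit shares its estimate of the spread over both experiments, although replicates lay farther apart in the Gln experiment. For MTHFD2 the SE of the difference (0.16) is below that of the Gln effect alone (0.19). The SEs and p-values of differences, here and below, may therefore be too small. The difference was called lower for 7 of the 10 enzymes, against 20.5% of the 12631 genes tested lower and 19.9% higher. MTHFD2 had the largest of these differences, -4.73 ± 0.16 on the log2 scale (SE, edgeR adjusted p = 7.43e-09), followed by MTHFD1L (-3.93 ± 0.23, adjusted p = 2.83e-07) and ALDH1L2 (-3.78 ± 0.32, adjusted p = 4.56e-06). Serine synthesis differed in the same direction, with -3.11 ± 0.48 for PHGDH (adjusted p = 0.000372), -2.53 ± 0.18 for PSPH (adjusted p = 1.51e-06) and -2.38 ± 0.24 for PSAT1 (adjusted p = 1.9e-05), and SHMT2 differed by -1.45 ± 0.24 (adjusted p = 0.000603). MTHFD1 was not called, with a difference of 0.29 ± 0.28 (adjusted p = 0.446), and was called with the replicate block (0.28, adjusted p = 0.0183). SHMT1 (2.13 ± 1.85, adjusted p = 0.385) and MTHFD2L (-0.36 ± 0.37, adjusted p = 0.462) were not called. Without Gln-depleted replicate 1 both were (5.13, adjusted p = 0.0267, and -0.64, adjusted p = 0.0466), and SHMT1 was also called with the replicate block (3.02, adjusted p = 0.0312). These SHMT1 values use the first of its rows alone, which held 0.6% of the SHMT1 reads in Gln-depleted replicate 3.

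MTHFD2 and MTHFD1L moved in opposite directions in the experiments relative to the cytosolic MTHFD1. MTHFD2L and ALDH1L2, also mitochondrial, did not follow them under MAPKi, with fitted log2 fold changes of 0.05 and 0.34 against -0.55 for MTHFD1. Per read of the cytosolic MTHFD1, reads of the mitochondrial MTHFD2 numbered 0.236, 0.252 and 0.242 in MAPKi libraries and 1.07, 1.04 and 1.05 in DMSO libraries. In the Gln experiment they numbered 7.75, 12.9 and 13 without glutamine and 1.00, 1.82 and 1.68 in CTRL. Each pair of groups stood apart, and replicate 1 was the lowest in both groups of the Gln experiment. MTHFD1L had the same order of groups, with 0.0424 to 0.0516 reads per MTHFD1 read in MAPKi, 0.225 to 0.232 in DMSO, 0.277 to 0.304 in CTRL and 0.873 to 1.33 without glutamine. The reads of both mitochondrial dehydrogenases also shifted, from 27.1 to 32.4 reads of MTHFD2 per read of MTHFD2L in DMSO to 4.40 to 4.72 in MAPKi, and from 30.9 to 39.9 in CTRL to 86.4 to 174 without glutamine. These ratios use raw reads of different genes and are compared only between libraries.

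**Figure D3:**
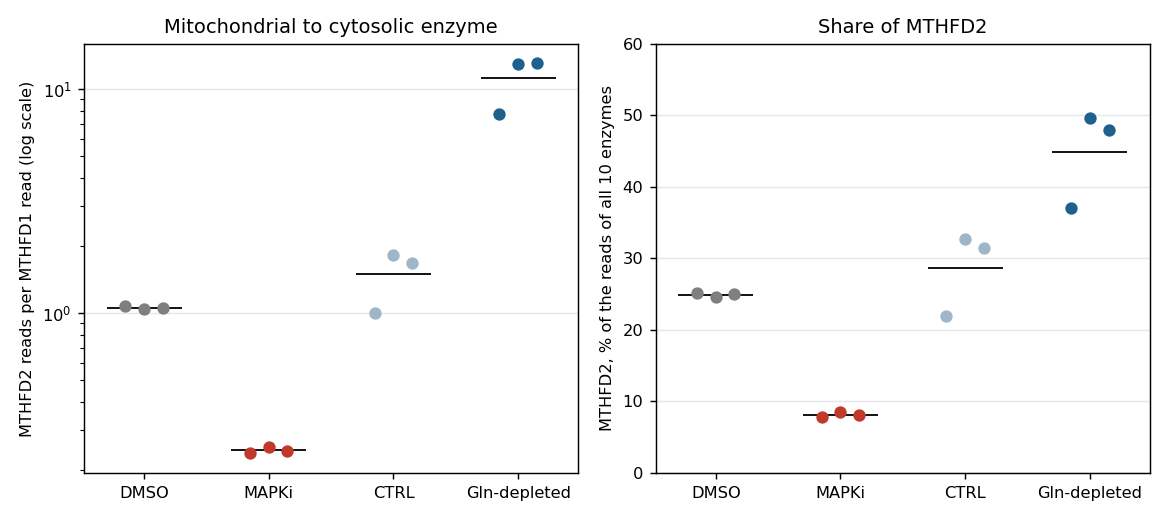
Left, reads of MTHFD2 per read of MTHFD1 in each library (log scale), and right, reads of MTHFD2 as a percentage of the reads of all 10 enzymes, with 1 point per library and a line at the group mean. The MAPKi libraries sit at 0.236 to 0.252 reads of MTHFD2 per MTHFD1 read and the Gln-depleted libraries at 7.75 to 13.

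The reads of all 10 enzymes together came to 485.2 to 505 CPM (counts per 1000000 counted reads) in MAPKi libraries and 1019 to 1048 CPM in DMSO libraries. In the Gln experiment they came to 2707 to 3255 CPM without glutamine and 1011 to 1339 CPM in CTRL. MTHFD2 made up 7.79 to 8.53% of these reads in MAPKi, 24.6 to 25.2% in DMSO, 21.9 to 32.7% in CTRL and 37.0 to 49.7% without glutamine, so no pair of groups within an experiment overlapped.

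Per kilobase of the MANE Select transcript, the order of the mean levels in DMSO libraries was SHMT2 (3658 normalized counts per kilobase), MTHFD1 (2717), MTHFD2 (2044), PHGDH (1782), PSAT1 (1696), PSPH (589.7), MTHFD1L (569.9), MTHFD2L (128.3), ALDH1L2 (14.08) and SHMT1 (14.0). In MAPKi libraries MTHFD2 came after PSAT1 and PHGDH (323.8, 1237 and 795.3) and MTHFD1L fell below MTHFD2L (82.08 and 132.8). Without glutamine MTHFD2 was the highest (11081), above PSAT1 (8315), SHMT2 (6368) and PHGDH (6345), where in CTRL SHMT2 led (3955) before MTHFD2 (2610), MTHFD1 (2535) and PSAT1 (2171). The order depended on the length used: per kilobase of all annotated exons, which for MTHFD1 are 17357 bases against 3154 in the MANE Select transcript, PSAT1 led without glutamine (8315 against 4264 for MTHFD2), MTHFD1L stayed above MTHFD2L in MAPKi (57.91 and 31.84) and MTHFD1 was the fourth in DMSO (493.7).

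The genes whose pattern was most like that of PHGDH over the 12 libraries, by Pearson r of log2 CPM centred on the mean of each experiment, were LONP1 (0.992), a mitochondrial protease, ARHGEF2 (0.986) and IDH1 (0.985), the cytosolic isocitrate dehydrogenase, of 10741 genes compared. For MTHFD2 they were SNRPB2 (0.992), a spliceosomal protein, KLHL29 (0.991) and RAP1GAP2 (0.990). The libraries share their experiment and the treatment, so r describes a pattern over 4 groups. Among the members, PHGDH had r of 0.954 with PSPH, 0.946 with SHMT2 and 0.923 with PSAT1, and -0.11 with MTHFD1.

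Genes on either side of the 10 enzymes are given by lists of their pathways. Of 6 tested carriers of serine and glycine, 3 were lower and 3 higher under MAPKi, and of 7 tested without glutamine, 3 were lower and 4 higher. Of all genes tested, 38.8% were lower and 39.3% higher under MAPKi, and 9.76% lower and 8.67% higher without glutamine. SLC1A5, a neutral amino acid exchanger that carries glutamine and serine, had 2401, 1992 and 1980 normalized counts in MAPKi and 8946, 7762 and 7627 in DMSO. It had 41511, 38321 and 35270 without glutamine and 13988, 10924 and 9895 in CTRL. The groups of SLC1A5 stood apart in both experiments, at log2 fold changes of -1.93 ± 0.09 (edgeR adjusted p = 8.62e-08) and 1.73 ± 0.20 (adjusted p = 0.00238). SLC1A4, a related serine carrier, rose in both, by 0.91 ± 0.07 (adjusted p = 3.63e-06) and 1.59 ± 0.22 (adjusted p = 0.00438). SFXN2, of the mitochondrial sideroflexin family that includes serine carriers, fell in both (-2.06 and -1.70), and the glycine carrier SLC6A9 had the largest rise without glutamine (2.26). SLC6A9 had few reads, with normalized counts of at most 5.863 in CTRL and 15.77 to 20.29 without glutamine. Its rise did not pass the limit of 1.5-fold (edgeR adjusted p = 0.076).

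Of 8 tested genes of the folate cycle outside the 10 enzymes, 5 were lower and 2 higher under MAPKi, with a list median of -0.63. The shares over all genes tested were 38.8% lower and 39.3% higher. TYMS, which makes thymidylate from the carbon unit, fell by 2.2 on the log2 scale (edgeR adjusted p = 9.52e-10). Without glutamine 2 of 7 tested were lower, TYMS (-1.42, adjusted p = 0.00617) and the mitochondrial methionyl-tRNA formyltransferase MTFMT (-0.93, adjusted p = 0.0119), with a list median of -0.16. The share over all genes tested there was 9.76% lower. TYMS thus fell in both experiments, as 2460, 2458 and 2447 normalized counts in MAPKi against 11214, 11547 and 11113 in DMSO, and 4316, 4952 and 6824 without glutamine against 15205, 13446 and 14376 in CTRL.

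Of 5 tested genes of folate uptake and retention, 2 were lower under MAPKi, the mitochondrial folate carrier SLC25A32 (-0.52, edgeR adjusted p = 2.3e-05) and the polyglutamate synthase FPGS (-0.33, adjusted p = 0.00014). With DESeq2, its size factors or the replicate block, this count was 3 to 4. For this list and the next, all genes tested were 38.8% lower and 39.3% higher under MAPKi, and 9.76% and 8.67% without glutamine. Without glutamine 1 of 5 was lower, the reduced folate carrier SLC19A1 (-2.0, adjusted p = 0.0342), and SLC25A32 was at 0.25 (adjusted p = 0.544). With the replicate block 3 of these 5 were lower. For this list and the next, the block called 3159 of the 12516 genes tested lower and 2955 higher. Of 10 tested genes that use serine or glycine, 2 were lower and 5 higher under MAPKi, from GCAT, a mitochondrial enzyme of threonine breakdown to glycine (-0.49), to SPTLC3, a subunit of serine palmitoyltransferase (2.47). Of 9 tested without glutamine, 1 was lower, the phosphatidylserine synthase PTDSS1 (-0.58, adjusted p = 0.0473), and 1 higher, SDSL, a serine dehydratase-like enzyme (1.26, adjusted p = 0.00981), against 3 and 2 with the replicate block.

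Of 9 tested genes of the methionine cycle and transsulfuration, 5 were lower and 4 higher under MAPKi. The shares over all genes tested were 38.8% lower and 39.3% higher. CBS, which joins serine to homocysteine, had the largest decrease (-1.54) and AHCYL2, of the adenosylhomocysteinase-like proteins, the largest increase (1.6). MAT2A, which makes S-adenosylmethionine, rose by 0.67 (edgeR adjusted p = 3.46e-05) and AHCY, which clears adenosylhomocysteine, fell by 0.29 (adjusted p = 0.000127). Without glutamine 1 was lower, the methionine synthase MTR (-0.76, adjusted p = 0.0227), and 2 were higher, CBS (1.89, adjusted p = 0.0214) and the cystathionine lyase CTH (2.88, adjusted p = 0.00189), while MAT2A (-0.24, adjusted p = 0.734) and AHCY (-0.23, adjusted p = 0.469) were not called. The shares over all genes tested there were 9.76% lower and 8.67% higher. Within experimental batch 2, MAT2A was called lower (-1.04, adjusted p = 0.00735) and AHCY was not (0.02, adjusted p = 0.943). The MAPKi effect minus the Gln depletion effect was -3.48 ± 0.31 for CTH (adjusted p = 7e-06) and -3.40 ± 0.53 for CBS (adjusted p = 0.000372).

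The amino acid response list holds ATF4 and genes it is known to raise. Without glutamine 10 of 11 tested were higher, where 8.67% of all genes tested were, with a list median of 2.60, from VLDLR (1.15) to NUPR1 (4.26). Under MAPKi the list went both ways, with 6 of 11 lower and 4 higher, where 38.8% and 39.3% of all genes tested were, and a median of -0.65, from CHAC1, a glutathione-degrading enzyme (-2.93), to ATF3, a stress-induced transcription factor (2.36). ATF4 itself had 4098, 4440 and 4332 normalized counts in MAPKi and 7317, 6355 and 7762 in DMSO, a log2 fold change of -0.74 ± 0.07 (edgeR adjusted p = 1.31e-05). It had 35102, 33588 and 31032 without glutamine and 11101, 9300 and 6963 in CTRL, a log2 fold change of 1.87 ± 0.21 (adjusted p = 0.00256). The groups of ATF4 did not overlap in either experiment. The difference of the effects was called lower for 9 of the 11, where 20.5% of all genes tested were. ATF4 was among these 9 (-2.58 ± 0.24, adjusted p = 9.48e-06).

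The proliferation genes, DNA replication and mitosis genes taken as a measure of dividing cells, fell in both experiments. All 12 were lower under MAPKi (median -1.80), from RRM2 (-2.91) to TOP2A (-1.0), and 8 of 12 were lower without glutamine (median -1.10), from MCM4 (-1.58) to CCNA2 (-0.95). Of all genes tested, 38.8% were lower under MAPKi and 9.76% without glutamine. MKI67, a marker of cycling cells, was at -1.28 ± 0.09 (edgeR adjusted p = 1.21e-06) and -1.15 ± 0.18 (adjusted p = 0.00715). The summed normalized count of the list was 40031 to 41029 in MAPKi, 125266 to 136268 in DMSO, 49450 to 74169 without glutamine and 102047 to 133548 in CTRL. The part of cell division in the enzyme changes was not tested.

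**Figure D4:**
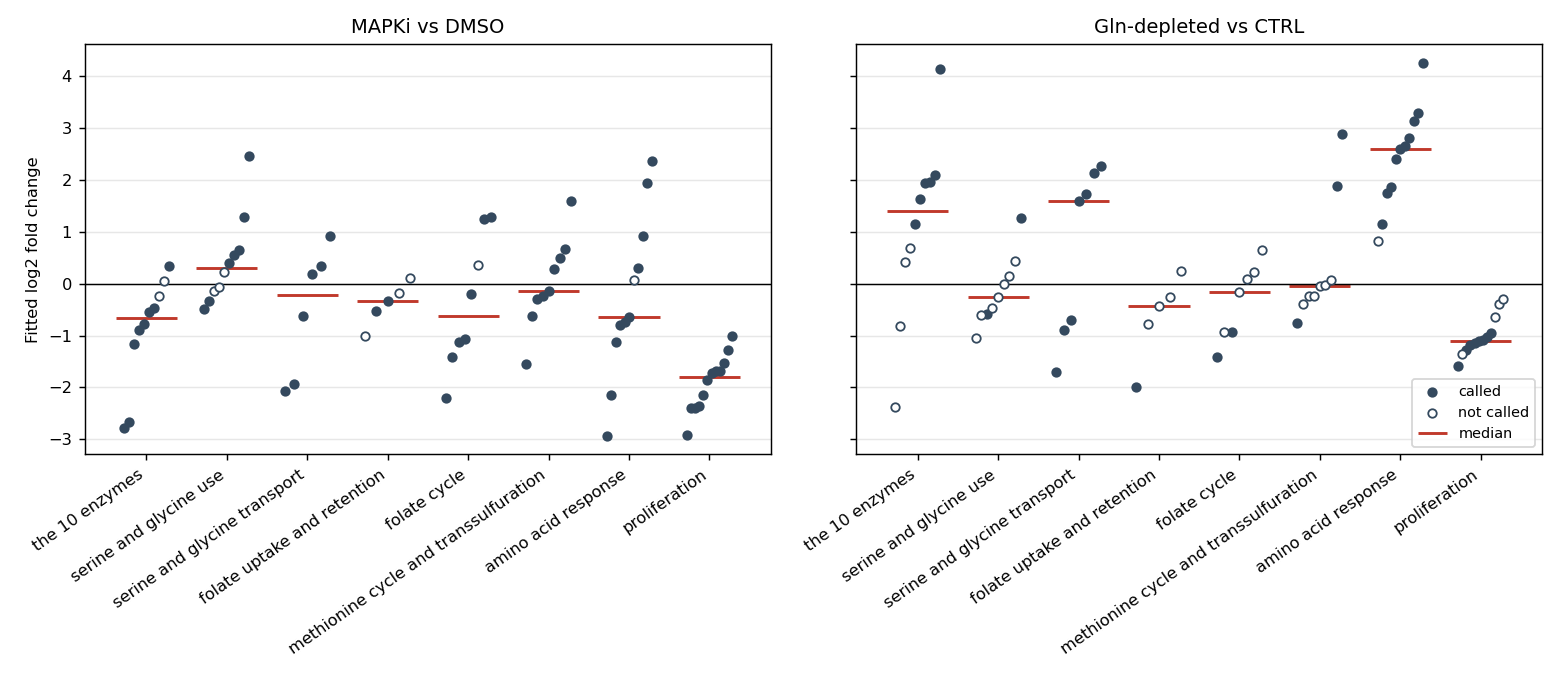
Fitted log2 fold change of each tested gene by list, MAPKi against DMSO on the left and Gln-depleted against CTRL on the right, with filled points where the adjusted p was at most 0.05 and a red line at the list median. Both fits treated the libraries as unpaired. The medians of the 10 enzymes are -0.66 and 1.40, those of the amino acid response genes -0.65 and 2.60, and those of the proliferation genes -1.80 and -1.10.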

How the data were processed

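RNA-seq of A375 cells was analysed from the table of raw read counts that the authors deposited, 12 libraries in 4 groups of 3. The authors trimmed reads with fastp 0.20.1, aligned them to GRCh38 with HISAT2 2.2.1 and counted those on exons with HTSeq 0.13.5, after depletion of ribosomal RNA. The deposited counts are whole numbers without normalization, and no column of values was left out. Of 44659 rows, 36524 matched a RefSeq gene by symbol, 524 by an older symbol, 5082 were further copies kept apart and 2529 were not matched, and 19379 were protein-coding.

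Protein-coding genes whose mean normalized count reached 10 were tested with edgeR 4.0.16 in R 4.3.3 (TMM, quasi-likelihood test against no change, or glmTreat beyond a change of 1.5-fold), each experiment alone and the difference of effects over all 12 libraries, with Benjamini-Hochberg adjustment over all genes tested. Normalized counts are raw counts scaled by TMM to the mean library size of an experiment, and SE is the log2 fold change divided by the square root of the F statistic. The fits of single experiments were run on simulated counts with known fold changes and libraries drawn independently. These counts held no pairing of replicates and did not cover the difference of effects, so they cannot check either. The enzymes and gene lists were chosen with earlier results of these data known. Named from each list are the called genes of lowest and highest log2 fold change in a comparison, and TYMS, SLC25A32, ATF4, MAT2A, AHCY, SLC1A4, SLC1A5 and MKI67, and a few genes that this rule names are not reported here. Nearest patterns were sought among genes whose mean reached 100.

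Pairing was judged from deviations from the group mean, correlated over genes. For same-numbered libraries r was 0.71, 0.58 and 0.438 in the Gln experiment, whose labels also give shared experimental batches. It was 0.155, 0.047 and 0.026 in the MAPKi experiment, which was not taken as paired. The main fits left out the pairing of the Gln experiment, and the replicate block took it in. Alternatives were DESeq2 1.42.0, its size factors, other limits and filters, all genes in the table, a fit of all 12 libraries, the replicate block, the experimental batch as a covariate or batch 2 alone, and each library left out in turn. Summed SHMT1 rows, the MANE Select length and list counts within batch 2 were added after seeing the data. Gene positions are from GENCODE and promoter windows from RefSeq, and protein sequences were not used here. Depth was 31056296 to 40071368 reads per library. For single members the spread between replicates was not compared with the noise of counting.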

Additional observations from a re-analysis of the deposited data

Results flagged for a closer look

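In the Gln depletion experiment, the log2 ratio of a Gln-depleted library to the CTRL library of the same replicate number had 1 sign in experimental batch 1 (replicate 1) and the other in both libraries of experimental batch 2 (replicates 2 and 3) for 4 of the listed genes that passed the count limit. MTHFD2L was at -0.01, close to no change, in replicate 1 and at 0.40 and 0.70 in replicates 2 and 3. MAT2A was at 0.73 in replicate 1 and at -0.81 and -1.33 in replicates 2 and 3. SPTLC2, a subunit of serine palmitoyltransferase, was at 0.18, -0.52 and -0.42, and MTRR, which reactivates methionine synthase, at 0.06, -0.04 and -0.16, also close to no change. Batch 1 holds a single library per group, so the difference was not tested for any of the 4.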

How the results depend on the processing

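Under MAPKi, PHGDH, PSPH, SHMT2, MTHFD2 and MTHFD1L were lower and called in each alternative run, and without glutamine PSAT1, PSPH, MTHFD2 and ALDH1L2 were higher and called in each. Counts of members lower under MAPKi stayed between 5 and 7. The 1 member higher under MAPKi, ALDH1L2, was lost (0) with DESeq2, the limit of 1.5-fold, a p limit of 0.01, a filter of 2 reads, no filter or a fit of 12 libraries, and left-out libraries gave 0 to 1. The log2 fold change under MAPKi turned sign for SHMT1 without MAPKi replicate 1 (0.24), MAPKi replicate 3 (0.14) or DMSO replicate 2 (0.91) and for MTHFD2L without MAPKi replicate 2 (-0.02), where left-out libraries gave -1.92 to 0.91 and -0.02 to 0.11, and none of these was called. The count of members lower without glutamine, 0, became 1 with DESeq2 and with a fit of 12 libraries, and 2 with the replicate block, with the batch as a covariate and within experimental batch 2, and left-out libraries gave 0 to 2.

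The replicate block also moved list counts from 2 to 4 (MAPKi, folate uptake lower), from 1 to 3 and from 1 to 2 (Gln, serine and glycine use lower and higher), from 1 to 3 (Gln, folate uptake lower), from 0 to 1 (Gln, folate cycle higher), and for the difference of effects from 3 to 5 (serine and glycine use higher), from 0 to 1 (folate uptake higher) and from 6 to 10 (proliferation lower). It changed no call of a member other than SHMT1, SHMT2 and MTHFD1. Serine and glycine use lower without glutamine, 1, became 0 with DESeq2's size factors and 2 with DESeq2, and methionine cycle lower became 2 within batch 2, where MAT2A was called (-1.04, adjusted p = 0.00735). Folate uptake lower under MAPKi, 2, also became at least 3 with DESeq2 and with its size factors.

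Of all genes tested, the 4890 lower and 4955 higher under MAPKi became 2316 and 2162 beyond 1.5-fold and 3195 and 3083 in a fit of 12 libraries. Without glutamine the 1222 lower and 1085 higher became 302 and 393 beyond 1.5-fold, 271 and 357 at a p limit of 0.01, 2831 and 2360 in a fit of 12 libraries, 3159 and 2955 with the block, 2899 and 2704 with the batch covariate and 2126 and 2231 within batch 2, DESeq2 called 1735 higher, and left-out libraries gave 320 to 1483 and 433 to 1227. The 2590 genes with a lower difference became 3966 with the block. The cause of these moves was not tested. An alignment of the proteins was not run. The spread between replicates limits the members, SHMT1 most, whose reads also split unevenly between 2 rows.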
